A study of Mus musculus with 4 samples.

Results

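The regulators of the multiciliation program described here are the 10 genes Gmnc, Mcidas, E2f4, E2f5, Ccno, Deup1, Myb, Foxj1, Rfx2 and Rfx3. They were taken by symbol from the deposited table of FPKM, the fragments of a transcript scaled by its length and by the number of mapped fragments. All 10 were found, in 12 of 12515 transcript rows, 2 rows each for Myb and Deup1 and 1 row for each of the other 8. The table holds 10213 symbols in all, and none of its rows is at 0 in a Ctrl-i library, whereas 162 are listed at 0 in both Fmr-i1 libraries. A gene without a row may therefore be one that had no value in Ctrl-i, and how the rows of the table were chosen is not stated. The list was selected on results of these same libraries, in which several of its genes had higher FPKM after transfection with Fmr-i1, so the values below are a description and the direction of the list is not independent evidence of anything.

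RNA came from multicilia of cultured mouse ependymal cells (mEPCs), the multiciliated cells that line the brain ventricles, which were differentiated from the telencephalon of newborn C57BL/6 mice by serum starvation and were harvested on day 10. The multicilia were sheared off together with the apical cortexes that carry them and were purified on a density gradient, so each library measures such a preparation and not whole cells. Ctrl-i cells had received a control siRNA and Fmr-i1 cells an siRNA against Fmr1, the gene of the RNA-binding protein Fmrp. Both were given by repeated transfection and are listed at 40 pmol. The paper gives this amount for cells in glass-bottom dishes. For cilia purification it names flasks, without a separate amount. Each group had 2 libraries, 1 from Exp.1 and 1 from Exp.2. The sources used here do not say whether the experiments used cells of different litters, so any p-value measures only the spread between these libraries.

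In multiciliated cells, Gmnc and Mcidas, coiled-coil proteins of the geminin family, act near the top of the program. They bind the transcription factors E2f4 and E2f5 and turn on genes for centriole amplification and for motile cilia. Ccno, an atypical cyclin, and Deup1, a structural protein of the deuterosome, serve the amplification of centrioles, for which Myb is an early transcription factor. Foxj1, a forkhead factor, and Rfx2 and Rfx3, winged-helix factors that bind the X-box of ciliary promoters, drive the genes of the motile axoneme.

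Because the 2 rows of Myb and the 2 rows of Deup1 did not divide alike in the 4 libraries, the sequences that set these transcripts apart are shown first. All positions are on GRCm38, sequences are those of the GENCODE M21 transcripts from 5′ to 3′, and capitals mark bases of an exon that the other row of the gene does not hold. Myb lies on the minus strand of chromosome 10. Its row Myb-203 (ENSMUST00000188495) holds the coding exon 10, from 21144969 to 21145325, which the row Myb-201 (ENSMUST00000020158) skips by joining its exon 9 to its exon 10. The extra exon has 357 bases, or 119 whole codons.
Myb-203, exon 9 into exon 10: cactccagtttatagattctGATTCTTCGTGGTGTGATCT
Myb-203, exon 10 into exon 11: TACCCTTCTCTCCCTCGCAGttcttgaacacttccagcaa
Myb-201, exon 9 into exon 10: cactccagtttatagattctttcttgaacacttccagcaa

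Deup1 lies on the minus strand of chromosome 9. Its row Deup1-201 (ENSMUST00000045513) holds the coding exons 10, from 15584135 to 15584329, and 11, from 15582525 to 15582611, and the row Deup1-203 (ENSMUST00000115593) skips both. They have 195 and 87 bases, together 94 whole codons. The shorter of them is shown whole, with the first 20 bases of exon 12.
Deup1-201, exon 9 into exon 10: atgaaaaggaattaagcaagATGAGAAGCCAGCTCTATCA
Deup1-201, exon 11 into exon 12: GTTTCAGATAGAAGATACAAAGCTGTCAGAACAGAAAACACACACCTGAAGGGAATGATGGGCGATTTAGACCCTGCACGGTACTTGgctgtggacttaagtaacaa
Deup1-203, exon 9 into exon 10: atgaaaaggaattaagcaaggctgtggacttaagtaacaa

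In each gene the skipped part is a whole number of codons, so both rows keep the reading frame across the junction shown. The annotation gives 6 transcripts for Myb and 5 for Deup1, of which only these have rows. Reads outside the skipped exons and the differing transcript ends fit both rows of a gene, so the division of a gene between its rows is an estimate of the authors' software, and the sum over the rows is given beside it.

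Some of the promoters hold short words that resemble binding sites of factors in the same list. A promoter of RefSeq (GRCm38.p6, from 250 bases before to 50 bases after a start) was given for 7 of the 10 genes, 9 promoters in all, and Foxj1, E2f4 and E2f5 had none. The words were chosen with the values known and were searched on both strands. The RFX half-site GTTGCCA stood in promoters of Deup1, Ccno and Mcidas and in 4.38% of all 32851 promoters. The E2F-like word GGCGGGA stood in those of Deup1, Myb, Ccno and Rfx2 and in 11.3% of all. The MYB-like word CAACTG stood in those of Deup1 and Gmnc and in 13.7% of all, and the forkhead-like word TGTTTAC in that of Myb and in 3.65% of all. In the windows below, read along the gene's strand, capitals mark the word, which in Deup1 is the reverse complement of the RFX half-site.
Mcidas, chr13:112993662-112993690, plus strand: ggggaagccagGTTGCCAggttggttaac
Ccno, chr13:112987572-112987600, plus strand: cccgggctgcgGTTGCCAcggtgacgaca
Deup1, chr9:15627909-15627937, minus strand: ccgcgtctccaTGGCAACccactgggaac
Deup1, chr9:15627856-15627884, minus strand: cgggcactgcgGGCGGGAcccgcagccca
Myb, chr10:21160976-21161004, minus strand: gcgccagatttGGCGGGAgggggagtgtc
Gmnc, chr16:26991711-26991738, minus strand: tgaatgaaactCAACTGgttggcccatt

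The RefSeq starts are not always those of the rows. The row of Gmnc starts at 26989974, downstream of the window shown. The E2F-like window of Deup1 lies downstream of the starts of both Deup1 rows, 15627903 and 15627933. These matches describe the letters of the windows, and no binding was measured here.

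Before the members are described, the libraries need some words. In the Ctrl-i libraries of Exp.1 and Exp.2 Fmr1 stood at 0.42 and 8.13 FPKM, and in Fmr-i1 its only row is listed at 0 FPKM in each library. All 10 ependymal markers were in the table, and their summed level was 5346 to 5720 FPKM in Ctrl-i and 5670 to 5976 FPKM in Fmr-i1. Vim, which glial cells also express, made up 2686 to 3797 FPKM of each sum, and the other 9 markers summed to 1923 to 2659 FPKM in Ctrl-i and 2230 to 2431 FPKM in Fmr-i1. All 8 astrocyte markers were also present, with sums of 2631 to 3356 FPKM in Ctrl-i and 2318 to 2344 FPKM in Fmr-i1, which did not overlap. Gfap alone gave 1440 to 2101 FPKM and 1331 to 1370 FPKM of these, and without it the sums were 1191 to 1255 FPKM and 947.1 to 1013 FPKM. None of 8 microglial markers had a row. Of 10 neuronal markers 5 had rows, Map2, Stmn2, Tubb3, Gad1 and Dcx, with sums of 90.0 to 98.2 FPKM in Ctrl-i and 75.6 to 92.4 FPKM in Fmr-i1, and Rbfox3, Snap25, Syt1, Nefl and Slc17a7 had none. Of 8 markers of the oligodendrocyte lineage 4 had rows, and Sox10, Pdgfra, Cspg4 and Mog had none. Their sums of 42.6 to 44.1 FPKM in Ctrl-i and 51.0 to 70.9 FPKM in Fmr-i1 did not overlap either, with Fmr-i1 the higher. Of all single symbol sums, 27.2% lay higher and 9.99% lower in Fmr-i1 without overlap. Markers of fibroblasts (2 of 6), endothelium (1 of 5) and choroid plexus (1 of 4) summed to at most 14.0 FPKM in any library, and Col1a1, Pecam1 and Ttr had no rows. The share of mitochondrially encoded RNAs in all FPKM was 28.1% and 38.4% for Ctrl-i, against 28.8% and 23.5% for Fmr-i1. The median FPKM was 7.73 to 8.32 in Ctrl-i and 8.99 to 9.39 in Fmr-i1, and the median log2 fold change of all 11898 rows tested was 0.16, against which the members are read. Scaling every library to its own median brought that value to -0.01.

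The regulators spanned a wide range of levels. Foxj1 stood alone at the top with 188.76 and 312.8 FPKM in Ctrl-i and 296.46 and 260.62 FPKM in Fmr-i1, a mean level above 98.0% of all symbols. The other 9 lay between 2.37 and 35.5 FPKM in every library. In Ctrl-i, the mean of Foxj1 was 15.5 times that of Rfx2, which came next, and the ranges of the 2 libraries overlapped between all neighbours of the order Rfx2, Myb, E2f5, Ccno, Rfx3, Deup1 and Gmnc. E2f4 (5.04 and 6.93 FPKM) and then Mcidas (2.37 and 2.93 FPKM) lay below these without overlap. In Fmr-i1, Foxj1 was 9.19 times the next gene, Myb, which overlapped with Deup1, as did Deup1 with Ccno. Rfx2, E2f4, Gmnc, E2f5, Rfx3 and Mcidas followed below Ccno, and each overlapped with its neighbour. Levels of different genes can be set side by side here because the FPKM fit the spliced length of the transcripts. Multiplied by the spliced length, they sum to 92.2% to 93.6% of the mapped fragments of a library, whereas the length column of the table would give an impossible 762% to 882%.

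**Figure D1:**
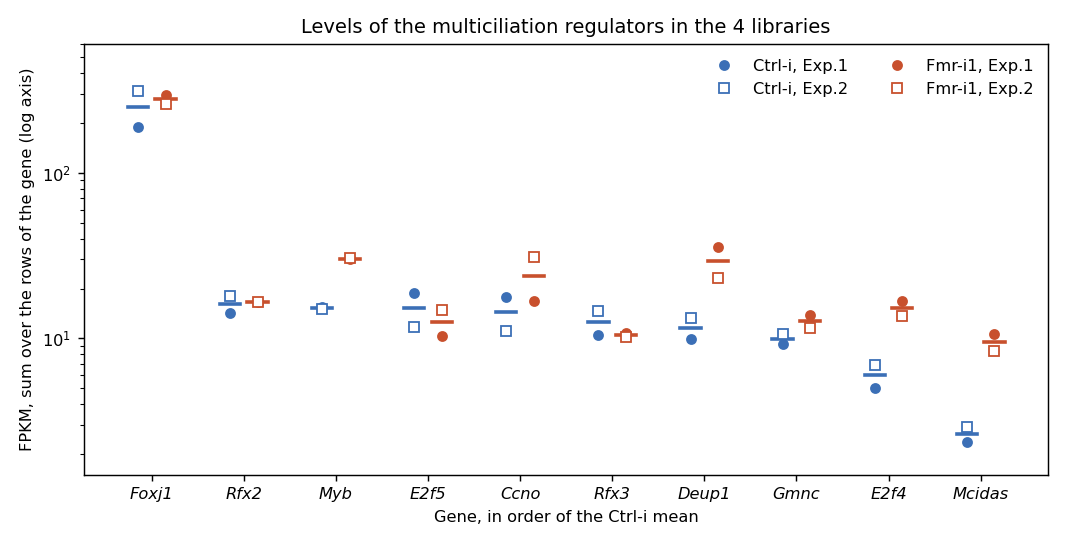
FPKM of each regulator, summed over its rows, in the 4 libraries on a log axis; circles are Exp.1, open squares Exp.2, blue Ctrl-i, orange Fmr-i1, and bars the mean of 2 libraries. Foxj1 lies at 188.76 FPKM or higher in all libraries, and for Myb, Deup1, Gmnc, E2f4 and Mcidas both Fmr-i1 points lie above both Ctrl-i points.

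Among the genes at the top of the program, Mcidas stood at 2.37 and 2.93 FPKM in Ctrl-i and at 10.67 and 8.39 FPKM in Fmr-i1, with Exp.1 first in each pair. Both Fmr-i1 libraries were above both Ctrl-i libraries, and the lower Fmr-i1 value was 2.86 times the higher Ctrl-i value. Within the experiments the ratio of Fmr-i1 to Ctrl-i was 4.50 and 2.86. The fit gave a log2 fold change of 1.52 ± 0.49 (SE, n = 2 per group, limma adjusted p = 0.945). Since these are bulk libraries, more cells or cortexes with a transcript and more of it in each cannot be told apart, here and below.

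Gmnc, which acts upstream of Mcidas, stood at 9.29 and 10.63 FPKM in Ctrl-i and at 13.84 and 11.51 FPKM in Fmr-i1. The groups did not overlap, but the lower Fmr-i1 value was only 1.08 times the higher Ctrl-i value, and the log2 fold change of 0.32 ± 0.43 lay within its error of the median of all rows. When each library was divided by its median, the groups of Gmnc overlapped.

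The E2F partners of Gmnc and Mcidas differed from each other in pattern. E2f4 stood at 5.04 and 6.93 FPKM in Ctrl-i and at 16.77 and 13.68 FPKM in Fmr-i1. The ratios within the experiments were 3.33 and 1.97, without overlap of the groups, and the log2 fold change was 1.22 ± 0.46 (limma adjusted p = 0.945). E2f5 stood at 18.8 and 11.64 FPKM in Ctrl-i and at 10.38 and 14.8 FPKM in Fmr-i1. It was lower in Fmr-i1 in Exp.1, with a ratio of 0.552, and higher in Exp.2, with a ratio of 1.27, and its log2 fold change was -0.24 ± 0.47. The order of E2f4 and E2f5 was thus reversed between Ctrl-i and Fmr-i1 in Exp.1, where E2f5 was the higher of them in Ctrl-i and E2f4 in Fmr-i1. In Exp.2 E2f5 was the higher in both groups. E2f5 overlaps 1810022K09Rik, a coding gene on the opposite strand with a row of its own. The sources used here do not say whether strand was used in counting, so reads of these genes may not have been told apart. The same limit holds for Deup1, Myb and Rfx3, which overlap genes on the opposite strand that have no rows (4930540M03Rik for Deup1, Gm26577 for Myb, Gm8412 and Gm20407 for Rfx3).

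Of the genes that serve centriole amplification, Deup1 had a sum of 9.87 and 13.31 FPKM in Ctrl-i and of 35.5 and 23.01 FPKM in Fmr-i1. The ratios within the experiments were 3.60 and 1.73, the groups did not overlap, and the log2 fold change of the sum was 1.25 ± 0.41 (limma adjusted p = 0.877 over symbol sums). Both rows of Deup1 showed this separation. Deup1-201, with the added exons, stood at 7.52 and 9.03 FPKM in Ctrl-i and at 29.82 and 14.88 FPKM in Fmr-i1. Deup1-203, without them, stood at 2.35 and 4.28 FPKM in Ctrl-i and at 5.68 and 8.13 FPKM in Fmr-i1. Deup1-201 took the larger part in every library, 76.2% and 67.8% of the Ctrl-i sums against 84.0% and 64.7% of the Fmr-i1 sums, and these shares overlapped between the groups.

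Ccno gave no such separation. It stood at 17.83 and 11.04 FPKM in Ctrl-i and at 16.74 and 31.08 FPKM in Fmr-i1, so it was nearly equal in Exp.1, with a ratio of 0.939, and higher in Fmr-i1 in Exp.2, with a ratio of 2.81. Its log2 fold change was 0.66 ± 0.50. Ccno and Mcidas are neighbours on chromosome 13, both on the plus strand, with 3067 bases between the end of Ccno at 112990777 and the start of Mcidas at 112993845. In Exp.1 the ratio was 4.50 for Mcidas and 0.939 for Ccno, and in Exp.2 it was nearly alike, 2.86 and 2.81.

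Myb showed a division between its rows that its sum did not show. Its sum was 15.51 and 15.07 FPKM in Ctrl-i and 30.2 and 30.4 FPKM in Fmr-i1, so that libraries of a group differed by at most 1.03 times and the groups by 1.98 times. The log2 fold change of the sum was 0.94 ± 0.36 (limma adjusted p = 0.906 over symbol sums). The row with the added exon, Myb-203, stood at 13.03 and 3.21 FPKM in Ctrl-i and at 17.44 and 19.16 FPKM in Fmr-i1. The row without it, Myb-201, stood at 2.48 and 11.86 FPKM in Ctrl-i and at 12.76 and 11.24 FPKM in Fmr-i1.

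The Ctrl-i libraries thus held opposite mixtures of the rows of Myb. Myb-203 took 84.0% of the sum in Ctrl-i of Exp.1 and 21.3% in Ctrl-i of Exp.2, against 57.8% and 63.0% in Fmr-i1. As a result, Myb-201 was 5.15 times higher in Fmr-i1 in Exp.1 and 0.948 times in Exp.2, and Myb-203 was 1.34 times higher in Exp.1 and 5.97 times in Exp.2. The log2 fold change was 0.96 ± 0.63 for Myb-201 and 1.33 ± 0.58 for Myb-203, and without the Ctrl-i library of Exp.1 it became 0.01 and 2.195. Without the Ctrl-i library of Exp.2 it became 1.899 and 0.46. The difference of each row thus rested on which Ctrl-i library was kept, whereas the sum gave between 0.92 and 0.96 whichever library was left out.

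**Figure D2:**
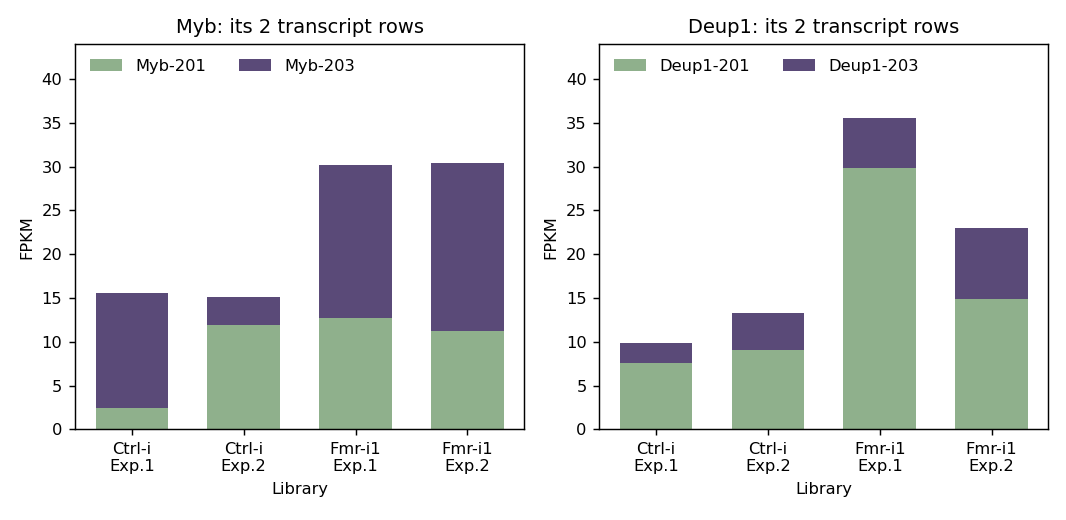
FPKM of the 2 transcript rows of Myb (left) and Deup1 (right), stacked, in each library. The Myb bars are equally tall within a group (15.51 and 15.07 FPKM in Ctrl-i, 30.2 and 30.4 FPKM in Fmr-i1) while Myb-203 takes 84.0% of the first Ctrl-i bar and 21.3% of the second, and Deup1-201 takes the larger part of every Deup1 bar.

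The factors that drive the motile axoneme did not separate the groups. Foxj1 was 1.57 times as high in Fmr-i1 as in Ctrl-i in Exp.1 and 0.833 times in Exp.2, and both Fmr-i1 values lay between the Ctrl-i values. Its log2 fold change was 0.19 ± 0.34, close to the median of all rows. Rfx2 stood at 14.29 and 18.05 FPKM in Ctrl-i and at 16.6 and 16.64 FPKM in Fmr-i1, again between the Ctrl-i values, with a log2 fold change of 0.05 ± 0.39. Rfx3 stood at 10.5 and 14.68 FPKM in Ctrl-i and at 10.73 and 10.23 FPKM in Fmr-i1, with a log2 fold change of -0.23 ± 0.43. After division by the library median, both Fmr-i1 values of Rfx3 lay below both Ctrl-i values. A p that misses the threshold does not show that the levels of these 3 genes were equal.

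By counts, 6 of the 12 rows and 5 of the 10 sums were higher in Fmr-i1 in both experiments, and 0 were lower in both. Over the 11898 rows that averaged 1 FPKM or more the same held for 34.2% (higher) and 16.6% (lower), and over all 9804 symbol sums for 35.6% and 15.2%. The same 6 rows, of Deup1 (both), E2f4, Gmnc, Mcidas and Myb-203, also had both Fmr-i1 libraries above both Ctrl-i libraries, as had the sums of these 5 genes. That separation was found upward in 25.7% of all rows and 27.2% of all sums, and downward in 11.2% and 9.99%, where the members had 0. Nothing is read from these shares, since the list was selected on this contrast. Both shares depended on the scaling. After division by the library median, 23.7% of all rows were higher in both experiments and 26.1% lower, and of the members 5 rows were higher and 1, Rfx3, was lower.

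The limma fit over the whole table called 0% of the rows and 0% of the symbol sums in either direction at an adjusted p of 0.05, and so none of the members. At an unadjusted p under 0.05 it had 598 of 11898 rows and 519 of 9804 sums. The median log2 fold change of the 12 member rows was 0.78, against 0.16 over all rows, and that of the 10 sums was 0.49, against 0.16. The median of the member rows was 0.40 without the Ctrl-i library of Exp.1 and 0.51 without that of Exp.2, and that of the sums lay between 0.36 and 0.60 whichever library was left out. After median scaling these were 0.60 against -0.01 for rows and 0.29 against -0.03 for sums.

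**Figure D3:**
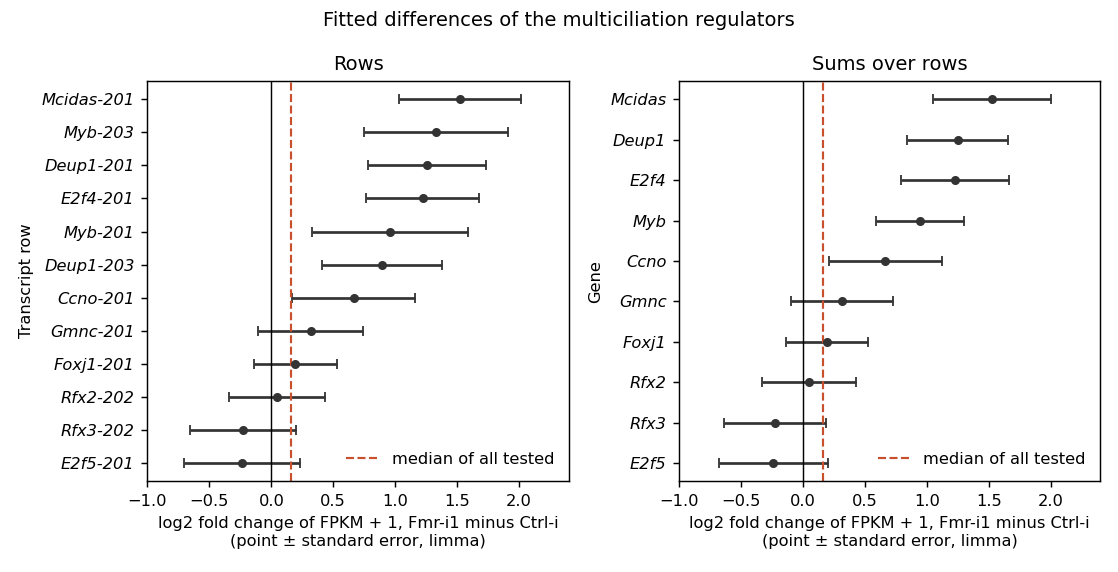
Log2 fold change of FPKM + 1, Fmr-i1 minus Ctrl-i, for each member row (left) and each member sum (right), as points with the standard error of the limma fit; the solid line is 0 and the dashed line the median of all rows or sums tested. Mcidas lies at 1.52 and the sums of Deup1, E2f4 and Myb at 1.25, 1.22 and 0.94. Gmnc, Foxj1, Rfx2, Rfx3 and E2f5 lie within 0.5 of 0.

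Related genes were read from lists drawn up with earlier results of these data known, and each count stands beside the 34.2% of all rows that were higher in both experiments and the 16.6% that were lower. Of 24 further members of the same gene families and their partners, 12 were in the table, with 15 rows tested, of which 8 were higher in Fmr-i1 in both experiments, 2 were lower and 0 were called. Their median log2 fold change was 0.46, and 0.15 without the Ctrl-i library of Exp.2 and 0.29 without the Fmr-i1 library of Exp.1. The highest level was that of Rb1, a repressor of E2F factors, at 20.36 and 11.23 FPKM in Ctrl-i and 28.55 and 18.78 FPKM in Fmr-i1. Ccna1, an A-type cyclin, stood at 0.89 and 1.15 FPKM in Ctrl-i and at 14.24 and 6.31 FPKM in Fmr-i1, a log2 fold change of 2.39 ± 0.56 (limma adjusted p = 0.872). The row of Rfx4 that is named by the rule had an unadjusted limma p of 0.089, and stood at 11.35 and 13.49 FPKM in Ctrl-i and at 6.87 and 4.98 FPKM in Fmr-i1, but the sum over the 3 rows of Rfx4 was 25.75 and 23.58 FPKM in Ctrl-i and 25.66 and 28.04 FPKM in Fmr-i1.

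A mixed list took in genes of the Notch pathway, which holds the program back, with other regulators, neighbours of Mcidas on chromosome 13 and a few further genes. Of 24 listed, 17 were in the table, and of 18 rows tested 6 were higher in both experiments, 1 was lower and 0 were called, with a median log2 fold change of 0.14. That median was 0.24 without the Ctrl-i library of Exp.2, 0.25 without the Fmr-i1 library of Exp.1 and -0.03 under median scaling. Gpx8, a peroxidase gene close to Mcidas, had the highest level, 45 and 66 FPKM in Ctrl-i and 59.75 and 60.16 FPKM in Fmr-i1. Gas2l2, a linker of actin and microtubules at basal bodies, stood at 4.7 and 7.93 FPKM in Ctrl-i and at 0.01 and 5.04 FPKM in Fmr-i1. A row of Trrap, a cofactor of histone acetyltransferases, stood at 4.42 and 0.81 FPKM in Ctrl-i and at 4.63 and 11.12 FPKM in Fmr-i1.

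Genes of the deuterosome and of centriole amplification other than Deup1 and Ccno had a median log2 fold change of 0.29. Of 25 listed, 19 were in the table, and of their 24 rows 9 were higher in both experiments, 4 were lower and 0 were called. The median was 0.18 without one or the other Ctrl-i library and 0.10 under median scaling. Cetn2, a centrin, was nearly level at 145.68 and 152.35 FPKM in Ctrl-i and 142.56 and 136.93 FPKM in Fmr-i1. Ccp110, which caps centrioles, had a row at 7.91 and 1.82 FPKM in Ctrl-i and at 10.92 and 7.87 FPKM in Fmr-i1. Mdm1, a centriolar microtubule-binding protein, stood at 4.2 and 5.77 FPKM in Ctrl-i and at 7.45 and 12.69 FPKM in Fmr-i1.

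The motile cilia genes that Foxj1 and the Rfx factors drive were the longest list. Of 40 listed, 35 were in the table, and of 45 rows 16 were higher in both experiments, 7 were lower and 0 were called, with a median log2 fold change of 0.19. Within the experiments the median was 0.33 in Exp.1 and -0.02 in Exp.2. It was -0.04 without the Ctrl-i library of Exp.1, 0.34 without that of Exp.2 and 0.09 without the Fmr-i1 library of Exp.2. Dynlrb2, a dynein light chain, had the highest row, at 313.67 and 323.2 FPKM in Ctrl-i and 365.11 and 397.55 FPKM in Fmr-i1. Single rows of Mlf1 (20.65 and 17.8 FPKM in Ctrl-i, 7.32 and 8.31 FPKM in Fmr-i1) and of Ift172 (8.18 and 15.35 FPKM in Ctrl-i, 0.89 and 8.74 FPKM in Fmr-i1) were lower in both experiments. Their sums over all rows overlapped between the groups, with 104.12 and 131.03 FPKM in Ctrl-i and 118.38 and 120.71 FPKM in Fmr-i1 for Mlf1. For Ift172 the sum was 19.11 and 25.64 FPKM in Ctrl-i and 24.89 and 26.28 FPKM in Fmr-i1, higher in both experiments and so opposite to its row.

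The next list held cell cycle genes that E2F factors control. Of 30 listed, 20 were in the table, and of 22 rows 16 (72.7%, beside 34.2% of all rows) were higher in both experiments, 0 were lower and 0 were called. The median log2 fold change was 0.60, beside 0.16 over all rows, and 0.46 beside -0.01 under median scaling. Pcna, the DNA polymerase clamp, stood at 76.4 and 63.66 FPKM in Ctrl-i and at 86.18 and 92.3 FPKM in Fmr-i1. The mitotic kinase Cdk1 had a sum of 13.38 and 6.88 FPKM in Ctrl-i and of 56.45 and 39.22 FPKM in Fmr-i1, and the log2 fold changes of its rows were 2.30 ± 0.42 and 1.76 ± 0.44 (limma adjusted p = 0.752 and 0.928). Cells in cycle are not told apart here from multiciliated cells that express these genes.

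Of 8 RNAs that stay in the nucleus, 4 were in the table. Of 5 rows tested, 4 were higher in both experiments, and these belong to only 2 genes, Neat1 and Malat1, with 2 rows each. The groups did not overlap in 2 rows, both of Neat1 and higher in Fmr-i1, beside 25.7% of all rows, and 0 were called. The median log2 fold change was 0.79, but 0.405 without the Ctrl-i library of Exp.1 and 0.36 without the Fmr-i1 library of Exp.2. Neat1 had a row at 88 and 60.93 FPKM in Ctrl-i and at 104.72 and 155.5 FPKM in Fmr-i1. The rows of Malat1 summed to 35.49 and 97.3 FPKM in Ctrl-i and to 68.37 and 207.55 FPKM in Fmr-i1, higher in Fmr-i1 in each experiment but with overlapping groups. Of the transcription factors of astrocytes and progenitors, 14 of 17 were in the table, and of 16 rows 6 were higher in both experiments, 1 was lower and 0 were called. Their median log2 fold change was 0.23, and it ran from 0.09 without the Ctrl-i library of Exp.2 to 0.39 without that of Exp.1. A row of the homeodomain protein gene Hopx was at 332.9 and 166.99 FPKM in Ctrl-i and 202.91 and 193.04 FPKM in Fmr-i1, Lhx2 at 22.78 and 15.97 against 36.82 and 29.14 FPKM, and a row of Nfib at 2.78 and 5.4 against 5.52 and 10.54 FPKM. The part of these nuclear RNAs, of the cell cycle genes and of the astrocyte and oligodendrocyte markers in the values of the members was not tested.

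**Figure D4:**
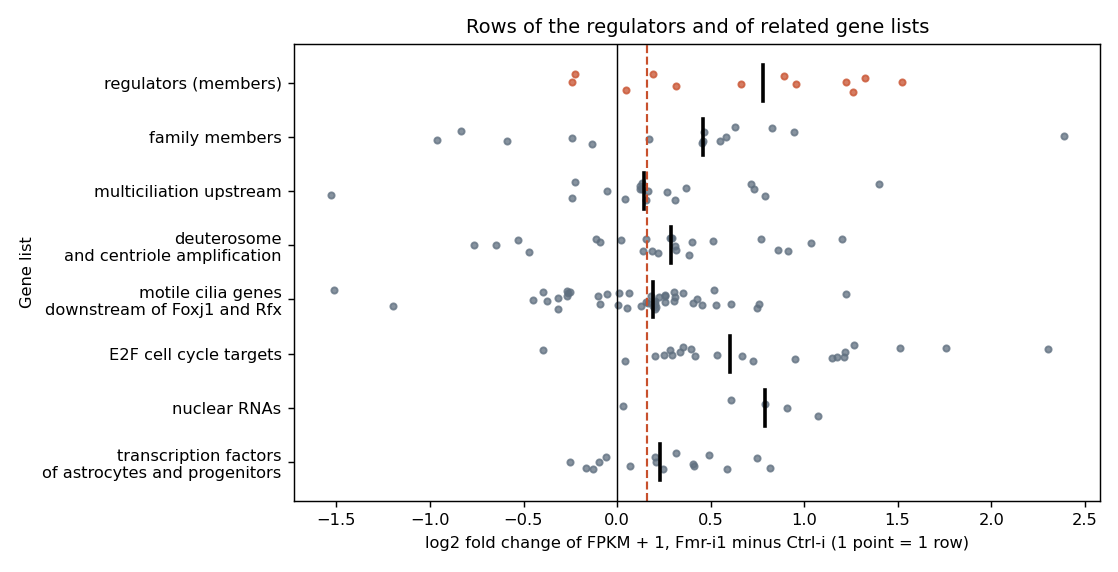
Log2 fold change of FPKM + 1, Fmr-i1 minus Ctrl-i, of every tested row of the regulators (orange) and of each related list (grey), with the median of each as a black bar; points are spread vertically only to be seen, and the dashed line is the median of all rows, 0.16. The medians are 0.78 for the regulators, 0.79 for nuclear RNAs, 0.60 for E2F cell cycle targets and 0.14 to 0.46 for the other lists.

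Lastly, the symbols with the most similar course over the 4 libraries were looked up for each member, by the Euclidean distance between centred log2(FPKM + 1) profiles among 7130 symbol sums with a mean of at least 5 FPKM. With only 4 libraries this is a description of likeness. Mcidas was most like Nt5c, Ubtf and C1qtnf5, at distances of 0.19 to 0.28. Ubtf, a factor of ribosomal RNA transcription, was also among the nearest of Deup1, with Pvr and Itpa-ps1, and Itpa-ps1 was the nearest of E2f4, followed by Ppp4r1 and Dmwd. Myb was most like Ccm2, at 10.8 and 10.62 FPKM in Ctrl-i and 21.92 and 21.24 FPKM in Fmr-i1, then Samd5 and Enkd1. Gmnc was nearest to Fam133b, Wars and Psmf1, and E2f5 to Ankrd66, Tmem126a and Aurkaip1. Ccno was nearest to Slc30a5, to the mitotic cyclin Ccnb2 (10.2 and 5.8 FPKM in Ctrl-i, 8.89 and 17.2 FPKM in Fmr-i1) and to Lhfp.

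Among the factors of the motile axoneme, Rfx2 was most like Mlf1, Aldh6a1 and Kif9. Mlf1 is one of the motile cilia genes listed above and Kif9 a kinesin of motile cilia. The distances were 0.02 to 0.04, and that of Aldh6a1 lay between those of Mlf1 and Kif9. Rfx2 itself ranged only from 14.29 to 18.05 FPKM over the 4 libraries, so no link to cilia genes is read from these distances. Rfx3 was nearest to Plekhb1, Dpm2 and Itpkb, and Foxj1 to Fam168a, Eif2b5 and Bnip3l, at distances of 0.03 to 0.06.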

How the data were processed

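RNA of purified multicilia was sequenced as paired reads from poly(A) libraries that keep the strand, in 2 Ctrl-i and 2 Fmr-i1 libraries. The authors deposited FPKM per transcript, with a length column that equals the genomic span in 90.3% of rows and was not used. The paper names Cutadapt, mapping to GRCm38/mm10 and Cuffdiff, whereas HISAT2 2.1.0 and featureCounts 1.5.3 stand in the submitters' processing notes, and the tool behind the FPKM could not be settled. The sources used here give no read depth, and counting error is therefore unknown.

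Rows averaging 1 FPKM or more were fitted in limma 3.58.1 (R 4.3.3) on log2(FPKM + 1), a scale that understates the change of low genes, with the experiment as block, a mean-variance trend and Benjamini-Hochberg adjustment at 0.05. The fit was also run over symbol sums. The pairing comes from the labels, which give each library its experiment. Deviations within an experiment correlated at -0.0822. The smallest p of an exact permutation test on 2 against 2 libraries, taken without the pairing, is 0.333, and a test within the experiments could not reach a lower one. Every member row is named, and of each list at most 4 genes (highest mean, the 2 smallest p, neighbours of members), with the 3 symbols most like each member. Members and lists were chosen with earlier results of these data known. Alternatives were pseudocounts, filters, scalings, sums, no block, no trend and leaving out each library. Fits that left out a library were run without the block.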

Additional observations from a re-analysis of the deposited data

How the results depend on the processing

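No call on a member depended on the settings tried. In 284 of 298 fits of a member under an alternative setting the log2 fold change kept its sign, and none of the 298 passed the threshold. These fits take each gene with 1 row both as a row and as a sum. All of them draw on the same 4 libraries, so they are repeated looks at 10 genes and not independent support. The signs that turned were those of genes near 0, and the cause was not tested. With each library divided by its median, Foxj1 became -0.0024 (row) and -0.021 (sum) and Rfx2 -0.14 and -0.16. With quantile normalization Rfx2 became -0.14 (row) and -0.145 (sum), and with rescaling without mitochondrially encoded RNAs -0.0095 in both. Leaving out each library in turn gave -0.17 to 0.56 for Foxj1, -0.11 to 0.20 for Rfx2 and -0.56 to 0.085 for E2f5, where the value at the turn was that without the Ctrl-i library of Exp.1.

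The fit with the block called 0 rows, and the fit with no replicate block called 3, of Bag1 and 9530068E07Rik, none of them a member. Leaving out a library gave 0 to 0 called rows, and over symbol sums 1 call, not of a member, without the Ctrl-i library of Exp.2. Each Fmr-i1 library was also set against the mean of the Ctrl-i libraries in place of the library of its experiment (no block). Then 10 member rows and 8 sums were higher with both Fmr-i1 libraries, and 2 rows and 2 sums were lower. The shares of all rows and sums were not counted in this way, so nothing is read from these counts. Under median scaling and under quantile normalization 1 row and 1 sum, of Rfx3, were lower in both experiments. The counts of members whose groups did not overlap were recomputed under the scalings after seeing the data. Above lay 5 rows and 4 sums in each, without Gmnc. Of all rows 16.6%, 18.0% and 23.4% lay above under median scaling, quantile normalization and rescaling without mitochondrially encoded RNAs. Of all sums it was 16.2%, 18.1% and 24.3%. Below lay 1 row and 1 sum, of Rfx3, under median scaling and quantile normalization, and 0 under rescaling. In the same order 18.7%, 17.0% and 12.7% of all rows and 19.2%, 16.8% and 11.75% of all sums lay below. With the highest row of a symbol in place of its sum, 5 members took another place in the order of levels. Medians of the related lists moved by over 1.5 times with single libraries or scalings, and only part of these moves is given beside each list. Under median scaling the median was 0.006 for the motile cilia genes and 0.29 for the family members. For the transcription factors of astrocytes and progenitors it was 0.03, beside -0.01 over all rows. With a pseudocount of 5 FPKM the median of the E2F cell cycle targets was 0.36 and that of the deuterosome list 0.13. FPKM without read counts limit what can be said of the lower genes, such as Mcidas in Ctrl-i.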
